A study of Arabidopsis thaliana with 6 samples.

Results

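The CrRLK1L receptor kinases, the family of FERONIA (FER), were taken from a list of 10 *Arabidopsis thaliana* loci, and the 6 of them that have an array probe set naming a single gene are the members described here, among 13356 genes measured in this way. The members are FER, THE1, ANX1, ANX2, AT5G24010 and AT2G23200. Of the 4 other loci, HERK1 and HERK2 had no named probe set and are not analysed here, and AT5G39000 and AT5G38990 share 1 probe set that cannot be assigned to either. Whole seedlings, 10 days old and grown in liquid medium that was renewed on day 8, received either no protease (labelled as nontreated or mock control, called mock here) or 20 nM purified protease IV of the bacterium *Pseudomonas aeruginosa*, and were harvested after 1 h. The labels name no ecotype, mutation or transgene. Each group had 3 arrays, labelled as biological replicates. The labels leave unsaid how wells or cultures were split over the replicates, and the p-values cover this sample-to-sample spread alone, part of which may be technical. Whether mock wells received a buffer or were mixed is not stated either.

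CrRLK1L proteins span the plasma membrane, with a malectin-like part that faces the cell wall and a kinase in the cytoplasm. They bind small secreted RALF peptides, often together with GPI-anchored proteins of the LORELEI type, and are known for sensing the state of the wall, for holding growing cells intact and, in the case of FER, for assembling immune receptor complexes. All levels below are log2 expression values, and each difference is protease IV minus mock on that scale.

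Within 1 h of protease IV, 2 members rose, 1 fell and 3 did not pass the test. AT2G23200 rose 3.46-fold, FER rose 1.34-fold and AT5G24010 fell 1.57-fold. The test was limma's, with p-values adjusted by Benjamini-Hochberg over all 13356 genes and a threshold of 0.05. Of all genes tested, 34.2% passed, 11.4% as higher and 22.8% as lower, so a count of 3 called members among 6 is read against a background in which calls were common. Cyclic loess scaling of the arrays turned the split of all calls from 66.6% lower to 42.3% lower, but left the calls of the 6 members as they were. The median difference of the 6 was -0.02, against -0.06 over all genes tested.

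FER, the receptor of RALF peptides that also supports the assembly of immune receptor complexes, stood at 9.35, 9.35 and 9.40 in the 3 mock samples and at 9.81, 9.81 and 9.75 after protease IV. The groups did not overlap, and the arrays within each group lay closer together than for any other member. The difference was 0.42 (SE 0.069, 95% interval 0.27 to 0.58, n = 3 each; limma, adjusted p = 0.000788). It ranked at 1124 among all 13356 differences ordered from the largest rise.

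AT2G23200, a CrRLK1L locus without a symbol in RefSeq, had the largest difference among the members. It stood at 6.20, 6.15 and 6.06 in mock, and at 8.10, 7.50 and 8.18 after protease IV. All treated samples lay above all mock samples, with protease IV replicate 2 lower than the other two. The difference was 1.79 (SE 0.15, 95% interval 1.45 to 2.13; limma, adjusted p = 6.65e-06). A rise of at least 2-fold that passed the test was seen in 4.51% of all genes, and AT2G23200 was the member that met this criterion.

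AT5G24010, also without a symbol, went the other way. Its mock samples stood at 5.68, 5.64 and 5.81, and its protease IV samples at 5.06, 5.18 and 4.93. The treated samples lay below every mock sample. The difference was -0.65 (SE 0.088, 95% interval -0.85 to -0.46; limma, adjusted p = 0.000206), and its level remained above the lower quartile of the arrays, 3.97 to 4.05, under which signals are treated here as near background.

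THE1, which responds to damage of the cell wall and is a receptor of RALF34, stood at 7.43, 7.34 and 7.41 in mock and at 7.14, 7.27 and 7.29 after protease IV. The treated samples lay slightly below the mock samples without overlap, as the groups of 45.6% of all genes also did not overlap. The difference, -0.16 (SE 0.075, 95% interval -0.33 to 0.008), did not pass in limma (adjusted p = 0.138), and it was 0.02 with cyclic loess, so its direction is not settled.

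ANX1 and ANX2, the paired receptors that keep the growing pollen tube intact, were near background in both groups. ANX1 stood at 3.54, 3.45 and 3.72 in mock and at 3.43, 3.46 and 3.55 after protease IV. ANX2 stood at 3.41, 3.55 and 3.45 in mock and at 3.65, 3.47 and 3.42 after protease IV. The groups of both genes overlapped, and all group means lay under the lower quartile of every array, where differences are compressed. The differences were -0.09 for ANX1 (95% interval -0.28 to 0.11) and 0.04 for ANX2 (95% interval -0.14 to 0.23), with limma adjusted p = 0.509 and adjusted p = 0.747. The 4 pollen marker genes checked, MGH3, AGL66, AGL104 and AtVEX1, also had both group means under that quartile. In whole seedlings, fewer cells of a type and less RNA per cell cannot be told apart.

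**Figure D1:**
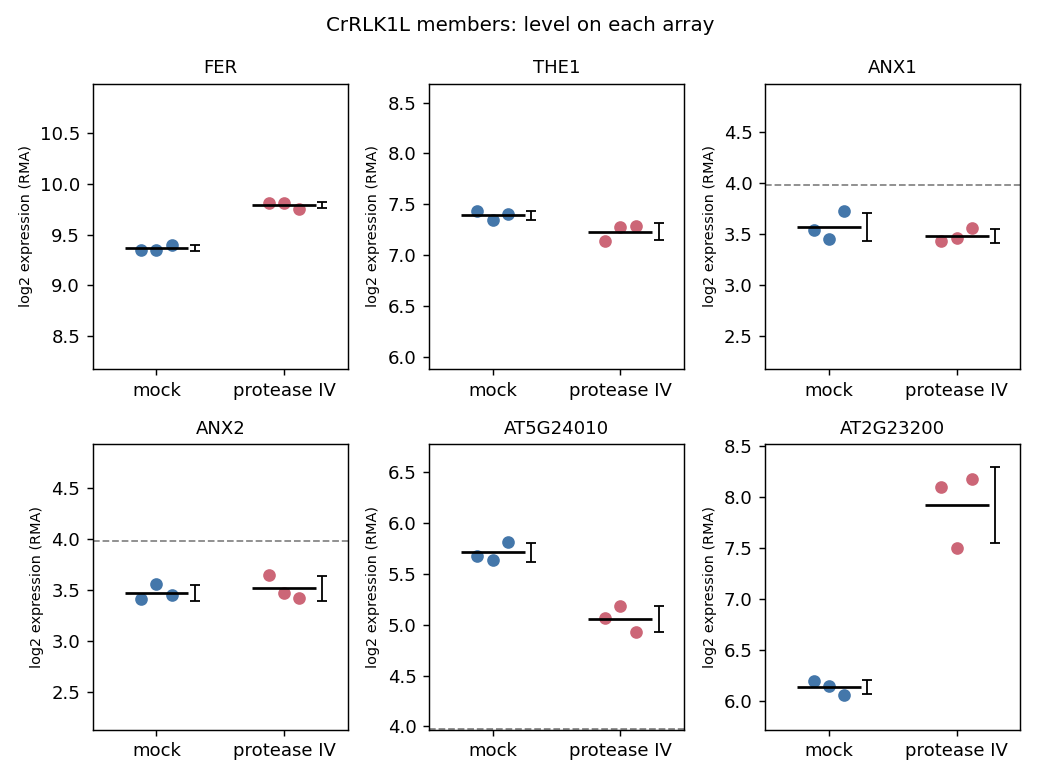
Log2 expression of the 6 members on each array (y axis; every panel spans the same range of the scale). Points are the 3 mock and 3 protease IV arrays, lines the group means, bars the SD, and the dashed line the lowest lower quartile of the arrays, 3.97. FER and AT2G23200 are higher and AT5G24010 lower after protease IV without overlap, and ANX1 and ANX2 lie under the dashed line.

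The response of FER was set against that of each other member in 5 pairs, by the difference of the 2 genes' values on each array. The rise of FER exceeded the difference of THE1 by 0.58 and of AT5G24010 by 1.08, and it was smaller than that of AT2G23200, where the pair differed by -1.37. The pairs with ANX1 and ANX2 gave 0.51 and 0.38, but as both genes were near background, where differences are compressed, these values do not show that FER responded more than they did. In all 5 pairs the arrays of the 2 groups did not overlap. FER is part of every pair, so these are not 5 separate results. Among single genes, the groups of 45.6% did not overlap, and no such share was computed for pairs. An exact two-sided permutation test over the 20 relabellings of the arrays gave p = 0.1 in each pair, and 0.1 after adjustment over the 5 pairs. This is the smallest p that 3 arrays against 3 allow, so the pair tests cannot reach 0.05.

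Further CrRLK1L loci were listed from general knowledge of the family, but with earlier results of these data known, so their counts are descriptions. Among them, AT5G39020, AT5G39030 and AT2G39360 had larger differences than FER. Of 7 such loci 6 were measured: 4 rose, 0 fell and 2 did not pass in limma, 0 of these 2 at an unadjusted p under 0.05. At least 2-fold rises were seen in 3 of the 4. Over all genes tested, 11.4% were called higher, 22.8% lower and 4.51% higher by at least 2-fold. The median difference of the 6 was 0.73. AT5G39020 had the largest difference of any measured family gene. It stood at 5.17, 5.24 and 5.34 in mock and at 9.35, 8.95 and 9.29 after protease IV. That is a 15.4-fold rise, with a difference of 3.94 (SE 0.11, 95% interval 3.70 to 4.18; limma, adjusted p = 9.21e-10), and it ranked at 75 among all differences.

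AT5G39030 stood at 5.53, 5.56 and 5.46 in mock and at 7.25, 7.09 and 7.29 after protease IV. It rose 3.23-fold, by 1.69 (SE 0.080; limma, adjusted p = 5.29e-08). AT5G39020 and AT5G39030 lie near each other on chromosome 5, with 1 protein-coding gene between them in RefSeq (TAIR10.1). The loci AT5G38990 and AT5G39000 are adjacent to each other in the same stretch, with 1 protein-coding gene between AT5G39000 and AT5G39020. The probe set that names both AT5G38990 and AT5G39000 was higher after protease IV as well. Whether related neighbours in this stretch bind each other's probes was not tested.

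AT2G39360 stood at 6.46, 6.51 and 6.76 in mock and at 7.73, 7.47 and 7.83 after protease IV, a rise of 2.15-fold (difference 1.10, SE 0.11; limma, adjusted p = 2.60e-05). AT5G59700 stood at 4.66, 4.83 and 4.80 in mock and at 5.11, 5.31 and 4.96 after protease IV. These groups did not overlap but came close, and the difference of 0.36 (SE 0.099; limma, adjusted p = 0.0171) did not pass without mock replicate 1 (adjusted p = 0.0749) or with the arrays centred on bacterial controls (adjusted p = 0.0781). AT4G39110 and AT2G21480 had group means under the lower quartile of the arrays, as ANX1 and ANX2 did, and differences of -0.14 and -0.13 that did not pass.

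Across all 12 measured family genes, 6 rose, 1 fell and 5 did not pass, and 4 of the 12 had both group means near background. Of all 13356 genes tested, 3635 had both group means near background. The share of calls over all genes was 34.2%, with 11.4% higher and 22.8% lower. In order of their differences, AT5G39020 at 3.94 stood well apart from AT2G23200 at 1.79. AT2G23200 and AT5G39030, at 1.79 and 1.69, had overlapping 95% intervals. AT2G39360 followed at 1.10, and FER and AT5G59700, at 0.42 and 0.36, again had overlapping intervals. Differences between these neighbours in the order were not tested. In the 4 family genes that rose at least 2-fold, protease IV replicate 2 was the lowest of the treated arrays every time. The same array was the lowest in 445 of the 602 genes of the whole table that rose at least 2-fold and passed, or 73.9%.

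**Figure D2:**
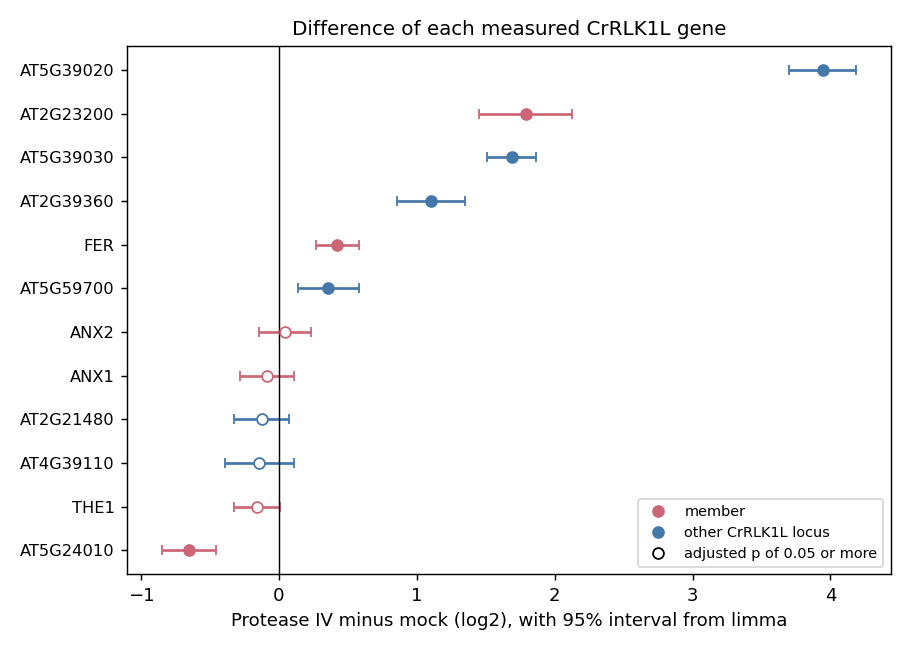
Protease IV minus mock (x axis, log2) for the 12 measured CrRLK1L genes, with 95% intervals from limma over 3 arrays a group; open points did not pass. AT5G39020 lies at 3.94, apart from all others, and AT5G24010 is the measured family gene below 0 that passed.

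**Figure D3:**
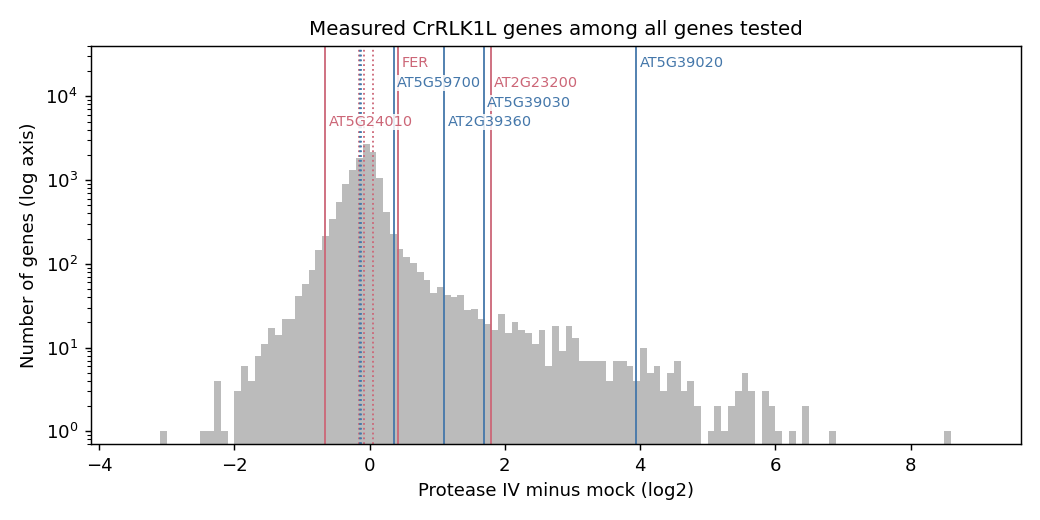
Number of genes (y axis, log axis) by protease IV minus mock (x axis, log2) for all 13356 genes tested, with vertical lines at the measured CrRLK1L genes (red for members, blue for other loci, dotted where they did not pass). FER lies on the shoulder of the distribution at 0.42, and AT2G23200, AT5G39030 and AT5G39020 lie in its right tail.

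The ligands of the family are RALF peptides, cut from larger precursors. Of 34 RALF genes 10 were measured: 1 rose, 5 fell and 4 did not pass, where 11.4% of all genes were called higher and 22.8% lower. Their median difference was -0.23, against -0.06 over all genes. With cyclic loess 2 rose and 3 fell. Since 4 of the 10 had both group means near background, these counts do not describe the ligands as a whole.

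RALFL34, the peptide perceived by THE1, stood at 9.94, 10.06 and 10.01 in mock and at 9.49, 9.56 and 9.67 after protease IV. All treated samples were lower, and the fall of 0.43 was 1.35-fold (SE 0.078; limma, adjusted p = 0.00152). RALFL24 showed the largest fall of the list. It went from 7.34, 7.25 and 7.38 to 6.16, 6.67 and 6.81, with protease IV replicate 1 the lowest, and fell by 0.78 (SE 0.14; limma, adjusted p = 0.00187). RALFL32 fell by 0.29 and RALFL31 fell by 0.26, but neither passed with cyclic loess or without mock replicate 1 (limma, adjusted p = 0.0650 for RALFL32 and 0.160 for RALFL31), where 3 RALF genes fell. RALFL31 also did not pass when any 1 of 4 other single arrays was left out (limma, adjusted p = 0.0584 without mock replicate 2, 0.0806 without mock replicate 3, 0.139 without protease IV replicate 1 and 0.0875 without protease IV replicate 2).

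RALFL33 did not pass as tested, but its call depended on the setting. It stood at 9.62, 9.70 and 9.66 in mock and at 10.05, 9.66 and 10.06 after protease IV, so that protease IV replicate 2 lay within the mock range. Its difference of 0.26 gave adjusted p = 0.0947 in limma, and it was 0.39 (adjusted p = 0.00314) without protease IV replicate 2. It also passed in limma with cyclic loess, at 0.43 (adjusted p = 0.0189), and with a variance trend (adjusted p = 0.0406). RALFL18, the member of the list that rose, went from 3.70, 3.75 and 4.05 to 4.36, 4.14 and 4.37, a difference of 0.45 from a dim mock level (limma, adjusted p = 0.00783). RALFL27 fell by 0.53 with both group means near background.

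S1P, the subtilase that cuts RALF precursors such as that of RALF23, stood at 6.46, 6.36 and 6.46 in mock and at 6.04, 6.06 and 6.02 after protease IV. The groups did not overlap, and S1P fell by 0.38 (SE 0.071; limma, adjusted p = 0.00176). None of the 4 LORELEI-type co-receptors and none of the 25 ROP GTPase and ROP-GEF genes, which carry the signal of FER inside the cell, had a probe set named for it alone.

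LRX proteins are extensins with leucine-rich repeats that hold RALF peptides in the wall. Of 11 listed LRX loci 8 were measured, 5 of them near background in both groups. AT2G15880 passed at 0.26 and AT5G25550 at -0.24, both among those 5, and the other 6 did not pass. Over all genes tested, 34.2% passed. The median of the 8 was -0.08. AT2G15880 did not pass without mock replicate 2 (limma, adjusted p = 0.0789) or protease IV replicate 1 (adjusted p = 0.0659), or with arrays centred on the bacterial controls (adjusted p = 0.226), nor AT5G25550 without mock replicate 1 (adjusted p = 0.114), mock replicate 3 (adjusted p = 0.152) or any single protease IV array (adjusted p = 0.0679 to adjusted p = 0.0971).

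Of 20 listed partners of the receptors in complexes and signalling, 5 were measured: 3 rose, 1 fell and 1 did not pass. The one that fell is S1P. Over all genes tested, 11.4% were called higher and 22.8% lower. EFR, which senses the bacterial elongation factor Tu and whose complex FER helps to assemble, stood at 4.84, 4.79 and 4.64 in mock and at 6.25, 6.12 and 6.49 after protease IV. It rose 2.89-fold (difference 1.53, SE 0.10; limma, adjusted p = 9.14e-07). BIK1, a cytoplasmic kinase that acts under immune receptors, stood at 9.27, 9.27 and 9.19 in mock and at 10.99, 10.71 and 10.88 after protease IV, a rise of 3.06-fold (limma, adjusted p = 1.48e-07). AT4G08850 rose from 9.63, 9.76 and 9.50 to 11.90, 11.58 and 12.02, or 4.61-fold. AT2G41970 differed by -0.09 with overlapping groups, and by 0.02 with cyclic loess. The lists of ligands, wall proteins and partners were chosen with earlier results of these data known, so their directions are descriptions.

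**Figure D4:**
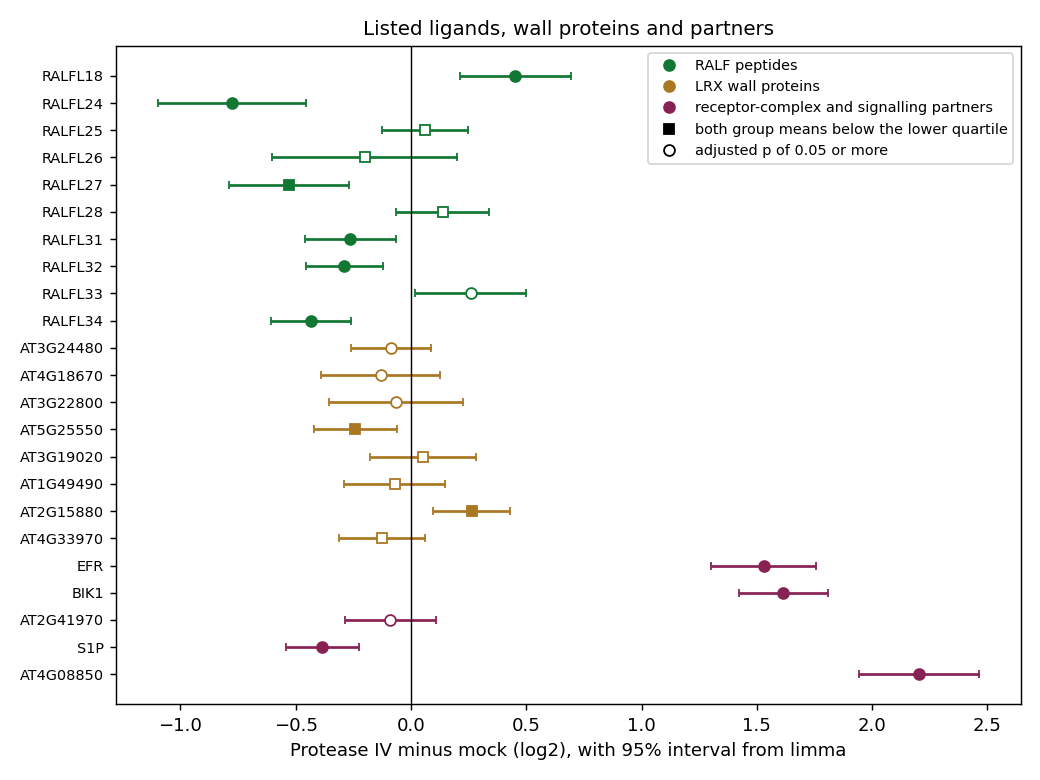
Protease IV minus mock (x axis, log2) with 95% intervals from limma for the 23 measured genes of the ligand, wall protein and partner lists. Squares mark genes near background in both groups, and open symbols did not pass; EFR, BIK1 and AT4G08850 lie above 1.5, and most RALF genes that passed lie below 0.

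The genes whose 6-array profile came closest to that of FER, by the Euclidean distance of mean-centred log2 values among 7644 genes with a mean of at least 5, were AT1G67340, AT4G15260, AT2G41160, AT3G02770 and AT2G05260. Their distances ran from 0.065 to 0.085, and their own differences from 0.37 to 0.46. For AT2G23200 the closest were AT1G19310, APS3, which encodes an ATP sulfurylase of sulfate assimilation, AT1G63350, AT5G55560 and AT5G18150, at distances of 0.22 to 0.25. Their differences ran from 1.71 to 1.91. Since the 6 arrays form 2 groups, genes with a difference of like size come close in this measure by construction.

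**Figure D5:**
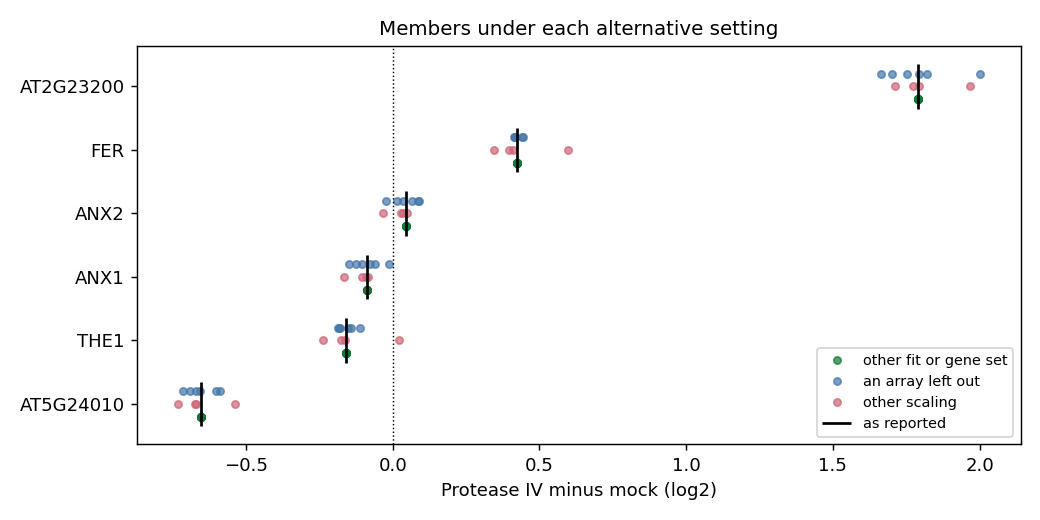
Protease IV minus mock (x axis, log2) of the 6 members as reported (black lines) and under each alternative: 1 array left out, other scalings between arrays, or another fit or gene set. AT2G23200 and FER stay above 0 and AT5G24010 below 0 at every point drawn, whereas THE1 and ANX2 have points on both sides of 0. Points of another fit or gene set fall on the reported value, since these settings left the differences unchanged.

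The array medians were 6.07 to 6.13, which RMA brings close to each other by construction. Across genes, which are not independent replicates, arrays of 1 group correlated at 0.996 to 0.998 and arrays of different groups at 0.953 to 0.963. The seedling label was checked by organ markers: the leaf genes HPR, PRK and LHCB4.2 stood at group means of 11.82 to 12.74 and the root gene PYK10 at 12.63 and 12.46. The other root genes were far lower, under the array medians. Their mock and protease IV means were 5.78 and 5.90 for AT5G66390, 5.39 and 5.49 for EXPA7, and 5.61 and 5.27 for EXPA18. All 3 leaf genes measured, of 4 listed, were lower after protease IV, by 0.39 to 0.77 in size. HPR did not pass with cyclic loess. Over all genes tested, 22.8% were called lower. Of the 4 root genes, EXPA18 fell by 0.34 and the other 3 did not pass, and EXPA18 did not pass with cyclic loess, nor without mock replicate 1 or 3 or protease IV replicate 1 or 3 (limma, adjusted p = 0.0570 to adjusted p = 0.0925). For actin, the control of RNA quality, the 3-prime minus the 5-prime value was higher after protease IV, 1.81 ± 0.28 against 1.58 ± 0.008 (SD, n = 3 each; exact permutation p = 0.1), with the highest value, 2.12, in protease IV replicate 3. The actin difference was 0.23 with all arrays and 0.081 without that one. For GAPDH it was 0.075 (exact permutation p = 0.3) and for ubiquitin -0.004 (exact permutation p = 0.8). Without protease IV replicate 3, FER differed by 0.44, AT2G23200 by 1.67 and AT5G24010 by -0.59, and all 3 passed. The other treated arrays still had actin values of 1.7312 and 1.5846, above the highest mock value, 1.5823. Leaving out that array thus does not part the actin shift from the treatment, and whether RNA quality bears on these calls was not tested.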

How the data were processed

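The deposited values are log2 expression values of 22810 probe sets, made by the authors with RMA in affy 1.36.1, per the submitters' processing notes; the sources used here give no RMA settings. RMA quantile-normalizes arrays by construction, so changes in total mRNA cannot be read, and dim signals are compressed. Precision is limited by the 3 arrays of each group. The platform annotation held by GEO, possibly outdated, named 1 gene for 13513 probe sets and several for 503, and 8730 were unnamed; 13436 matched NCBI RefSeq (TAIR10.1). For the 146 genes with more than 1 such probe set the one with the highest mean was used. The CrRLK1L members and all lists were chosen with earlier results of these data known.

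Differences were fitted with limma 3.58.1 in R 4.3.3 (lmFit, eBayes, all 6 arrays, no covariates), tested two-sided and adjusted by Benjamini-Hochberg over 13356 genes; intervals and SEs come from this fit. The fit was tested on simulated data. Named were all measured members, the measured genes of the lists, first those past the threshold, and the 5 genes nearest in profile to FER and to the member with the largest difference. Same-numbered arrays did not deviate together (correlations 0.038, -0.10 and -0.18), so the replicate number is an alternative only. Other alternatives left out each array or changed the scaling, the dim-gene filter, the probe set choice or the variance model.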

Additional observations from a re-analysis of the deposited data

Results flagged for a closer look

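The probe set that names both AT5G39000 and AT5G38990 was outside the comparison of single genes and showed a signal above that of the mock samples. It stood at 8.03, 8.13 and 8.05 in mock and at 9.53, 9.51 and 9.75 after protease IV, without overlap. In the limma fit over all non-control probe sets its difference was 1.53 (SE 0.085, n = 3 each; adjusted p = 2.72e-07), or 2.88-fold. It cannot be said which of the 2 neighbouring CrRLK1L genes gave this signal.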

How the results depend on the processing

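The calls of FER, AT2G23200 and AT5G24010 held with the same direction in all 16 alternatives run for each, with FER between 0.35 and 0.60, AT2G23200 between 1.67 and 2.00 and AT5G24010 between -0.73 and -0.54. Another fit or gene set (the replicate block, the dim-gene filter, the probe set choice and the variance models) left these 3 differences unchanged. There only the p-values could move. The number of called members was 3 throughout. With the replicate block, which the deviations of the arrays do not bear out as a pairing, 4182 genes passed in all. Of the members 2 passed as higher and 1 as lower, and 4 RALF genes passed as lower. RALFL31 and AT5G25550 did not pass. Leaving out single arrays gave 3657 to 4705 called genes, 3 to 4 rising further CrRLK1L loci, 1 to 2 rising and 3 to 5 falling RALF genes, a difference of -0.023 to 0.090 for ANX2, and differences of -0.017 to 0.0059 in the 3-prime minus 5-prime value of ubiquitin, which is -0.004 with all arrays and was above 0 without protease IV replicate 1. Cyclic loess gave 1513 lower genes in all, 2 rising and 3 falling RALF genes, and differences of 0.022 for THE1 and 0.019 for AT2G41970. Arrays centred on the bacterial controls gave -0.034 for ANX2. With genes of a mean of at least 5 alone, 0 RALF genes rose in limma, 5 of them being left in the test; with a variance trend 2 rose. Over all 22746 non-control probe sets 8577 passed, 2888 higher and 5689 lower, against 4565 of the 13356 genes. All 50 values of the response pairs with FER kept their sign. Centring the arrays on their median or on the bacterial controls cancels within a pair, so the values under those settings could not change. The cause of these changes was not tested. Signal near background limits what can be said of ANX1 and ANX2.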
